A study of Mus musculus with 2 samples.

Results

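Cassette exons longer than 51 bases that were neither nearly always kept nor nearly always skipped were examined in mouse gastrocnemius, a large muscle of the calf. A cassette exon was an internal exon of a GENCODE transcript that lies inside an intron of another GENCODE transcript of the same gene. A read kept the exon when both of its splice sites were in the chain of introns of the read, and skipped it when 1 of its introns contained the whole exon. Inclusion is the percentage of these spanning reads that kept the exon. The 295 exons had at least 50 spanning reads in each of 2 libraries and a mean inclusion of 10 to 90%. They made up 10.2% of the 2888 longer cassette exons with that many reads, out of 26279 longer cassette exons and 29627 of any length in the annotation. Of the other 2593, 1911 had a mean inclusion above 90% and 682 below 10%. The exons were chosen by these inclusion values, so their levels are given as a description and without a test.

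The libraries came from male B6CASTF1/J mice, which are first-generation offspring of C57BL/6J and CAST/EiJ, at an age of 18 to 20 months. They are labelled as biological replicates 1 and 2 of 1 group, and no treatment, genotype or second tissue was compared. For each, 2 µg of RNA was used, ERCC and SIRV spike-in RNAs were added, and long cDNA molecules were read. The labels give separate biosamples with the same donor entry, and whether several animals were pooled is not given in the sources used here. Comparisons of inclusion and of gene level below are therefore between 2 libraries, not between conditions, and have no replicate check. Tests of pairs of exons and of last exons were made within each library, and a call needed both libraries.

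A cassette exon is either joined into the mature RNA or removed together with its flanking introns, and the choice is made by proteins that bind near the splice sites. An exon whose length is a multiple of 3 can be added or dropped without shifting the reading frame. Skeletal muscle is known for extensive splicing of this kind in genes of the sarcomere, the calcium-release apparatus and muscle transcription factors. A long read shows which exons were joined in the same molecule.

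Some of the exons came in neighbouring pairs of which a read kept 1, and their sequences show how alike the alternatives are. Mef2c encodes a transcription factor of the myocyte enhancer family, and its alternative exons lie at chr13:83625265-83625408 and chr13:83625470-83625607 (mm10, plus strand). Acp1 encodes a low-molecular-weight tyrosine phosphatase, with exons at chr12:30904870-30904983 and chr12:30904718-30904831 (minus strand). Calu encodes calumenin, a calcium-binding protein of the secretory pathway, with exons at chr6:29361294-29361487 and chr6:29361560-29361753 (plus strand). Tcf3 encodes the E12 and E47 basic helix-loop-helix factors, with exons at chr10:80412827-80413062 and chr10:80410398-80410624 (minus strand). All 8 exons are coding in their whole length. The exon nearer the 5′ end comes first in each pair, and capitals mark bases that differ from the partner or have no counterpart in it in a global alignment. The sequences were read from the GENCODE M21 transcripts.
Mef2c exon of 144 bases: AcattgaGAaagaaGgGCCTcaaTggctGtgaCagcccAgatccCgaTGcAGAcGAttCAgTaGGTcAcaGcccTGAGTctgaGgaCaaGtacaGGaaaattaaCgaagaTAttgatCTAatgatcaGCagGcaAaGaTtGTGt
Mef2c exon of 138 bases: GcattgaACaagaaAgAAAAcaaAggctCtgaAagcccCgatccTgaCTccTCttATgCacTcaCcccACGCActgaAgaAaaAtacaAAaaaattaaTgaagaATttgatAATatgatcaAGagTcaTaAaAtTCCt
Acp1 first exon of 114 bases: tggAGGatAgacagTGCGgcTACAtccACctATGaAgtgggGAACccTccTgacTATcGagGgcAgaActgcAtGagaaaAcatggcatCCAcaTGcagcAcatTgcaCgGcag
Acp1 second exon of 114 bases: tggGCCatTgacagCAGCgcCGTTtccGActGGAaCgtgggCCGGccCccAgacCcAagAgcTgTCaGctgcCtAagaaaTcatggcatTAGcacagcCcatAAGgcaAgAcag
Calu first exon of 194 bases: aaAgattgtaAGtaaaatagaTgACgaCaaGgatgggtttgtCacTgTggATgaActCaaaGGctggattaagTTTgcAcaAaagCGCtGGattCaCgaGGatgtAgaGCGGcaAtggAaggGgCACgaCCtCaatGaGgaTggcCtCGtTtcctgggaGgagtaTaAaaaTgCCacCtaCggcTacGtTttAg
Calu second exon of 194 bases: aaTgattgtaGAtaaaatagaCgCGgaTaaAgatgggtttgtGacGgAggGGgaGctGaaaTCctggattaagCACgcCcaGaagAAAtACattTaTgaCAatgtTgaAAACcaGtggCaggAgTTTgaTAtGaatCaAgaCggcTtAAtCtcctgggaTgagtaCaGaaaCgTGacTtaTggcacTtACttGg
Tcf3 exon of 236 bases: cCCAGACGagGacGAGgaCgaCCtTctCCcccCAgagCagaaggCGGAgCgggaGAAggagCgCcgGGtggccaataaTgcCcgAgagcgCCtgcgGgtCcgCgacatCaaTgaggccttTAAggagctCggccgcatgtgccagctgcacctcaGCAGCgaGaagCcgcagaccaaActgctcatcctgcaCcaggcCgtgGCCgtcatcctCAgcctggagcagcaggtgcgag
Tcf3 exon of 227 bases: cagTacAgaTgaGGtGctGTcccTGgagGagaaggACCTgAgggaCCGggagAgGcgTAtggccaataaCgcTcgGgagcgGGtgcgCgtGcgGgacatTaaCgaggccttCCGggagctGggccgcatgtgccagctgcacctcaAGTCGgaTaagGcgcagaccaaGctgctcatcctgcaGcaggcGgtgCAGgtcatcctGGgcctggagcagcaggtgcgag

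Identical bases made up 63.2% of the longer exon in Mef2c, 62.3% in Acp1, 67.0% in Calu and 74.2% in Tcf3. The other wholly coding pairs of this kind were Plpp1 with 58.7%, P4ha2 with 56.1%, Mef2a with 54.3%, Mef2d with 53.6% and Itga7 with 46.2%. All exons of the Mef2 genes code for a stretch beside the conserved DNA-binding domain.

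The remaining sequences belong to exons whose inclusion differed between the libraries, described further down. They are the exons of Mybpc1, slow myosin-binding protein C (chr10:88521277-88521335, minus strand), Phka1, the muscle regulatory subunit of phosphorylase kinase (chrX:102557096-102557272, minus strand), and Nrap, a nebulin-related anchoring protein (chr19:56374364-56374468, minus strand). Neb encodes nebulin, the giant ruler of the thin filament, and is shown by 2 exons at chr2:52153056-52153148 and chr2:52151364-52151456 (minus strand). Capitals mark the last 3 bases before the 5′ splice site.
Mybpc1 exon of 59 bases: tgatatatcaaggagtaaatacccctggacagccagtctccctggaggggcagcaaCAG
Phka1 exon of 177 bases: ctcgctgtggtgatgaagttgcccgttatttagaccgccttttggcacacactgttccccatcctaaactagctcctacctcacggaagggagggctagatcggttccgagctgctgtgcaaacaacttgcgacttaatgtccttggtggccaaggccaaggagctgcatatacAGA
Nrap exon of 105 bases: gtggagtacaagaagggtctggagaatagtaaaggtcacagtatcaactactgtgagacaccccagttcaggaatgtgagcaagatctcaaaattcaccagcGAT
Neb exon 148: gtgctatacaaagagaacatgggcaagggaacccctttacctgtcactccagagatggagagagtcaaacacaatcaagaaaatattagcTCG
Neb exon 149: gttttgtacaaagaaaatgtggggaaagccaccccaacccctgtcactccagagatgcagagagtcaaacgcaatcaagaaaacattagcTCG

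The 5 Neb exons of 93 bases among the 295 shared 71 to 80 bases with each other over 10 comparisons, or 76.3 to 86.0%.

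The 295 exons lay in 212 genes, 152 of which held 1 and 12 of which held 3 or more. Neb held 7, Ktn1 6 and Rnf14 5. Of the 295, 10 overlapped another of them at an alternative splice site, which left 290 separate positions. A read that kept 1 of 2 overlapping exons was not counted for the other. The inclusion values of overlapping exons therefore cannot be added. Replicate 1 had 1509380 reads and replicate 2 had 1173233. Spanning reads per exon ranged from 51 to 3849 in replicate 1 (median 104) and from 51 to 4330 in replicate 2 (median 113). The exact 95% Clopper-Pearson interval of an inclusion value had a median width of 16.1 and 15.7 percentage points. These intervals cover counting error only, since copies of 1 molecule cannot be told from separate molecules. Of the spanning reads, 52.2% were assigned to annotated transcripts, 33.7% to new combinations of annotated splice sites, 8.10% to incomplete matches of annotated transcripts and 5.92% to models with an unannotated splice site.

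Mean inclusion lay most often near either end of the range, with 96 exons between 10 and 30%, 39 between 30 and 50%, 55 between 50 and 70% and 105 between 70 and 90%. The exons just inside the lower limit were those of Bicd2 (88 bases, mean 10.1%), Flot2 (91 bases, 10.2%) and Foxn3 (66 bases, 10.3%). Just outside it were a 93-base Neb exon (9.83%), Eno1 (59 bases, 9.78%) and Morf4l1 (117 bases, 9.77%). Just inside the upper limit were Irak1 (132 bases, 89.97%), Anxa7 (66 bases, 89.9%) and Rapgef1 (258 bases, 89.9%), and just outside it Fxr1 (92 bases, 90.2%), Myo18a (78 bases, 90.2%) and Asb14 (132 bases, 90.3%).

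Most of the exons were coding and preserved the reading frame. Of the 295, 212 were coding in their whole length, 34 partly coding, 33 in a 5′ UTR, 2 in a 3′ UTR, 9 found only in transcripts annotated for nonsense-mediated decay and 5 only in noncoding transcripts. Their lengths ran from 53 to 2746 bases with a median of 105. A length that is a multiple of 3 was found in 188 exons, or 63.7% (exact 95% interval 58.0 to 69.2%). The share was 41.3% (39.1 to 43.6%) among longer cassette exons above 90% inclusion and 39.1% (35.5 to 42.9%) among those below 10%. It was 39.2% among 11374 other annotated internal exons of the same length class. Among wholly coding exons the shares were 76.4%, 42.0% and 66.7% in the same order, from 162 of 212, 761 of 1810 and 88 of 132. The exons of intermediate inclusion and the rarely kept coding exons had overlapping intervals, and both lay above the nearly constant exons. These intervals treat exons as independent, although some share a gene or overlap. They describe the shares and are not a test. Exons found only in decay or noncoding transcripts were 4.75% of the 295, 0.523% of those above 90% and 52.1% of those below 10%. Median GC content was 50.9%, 50% and 50%.

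**Figure D1:**
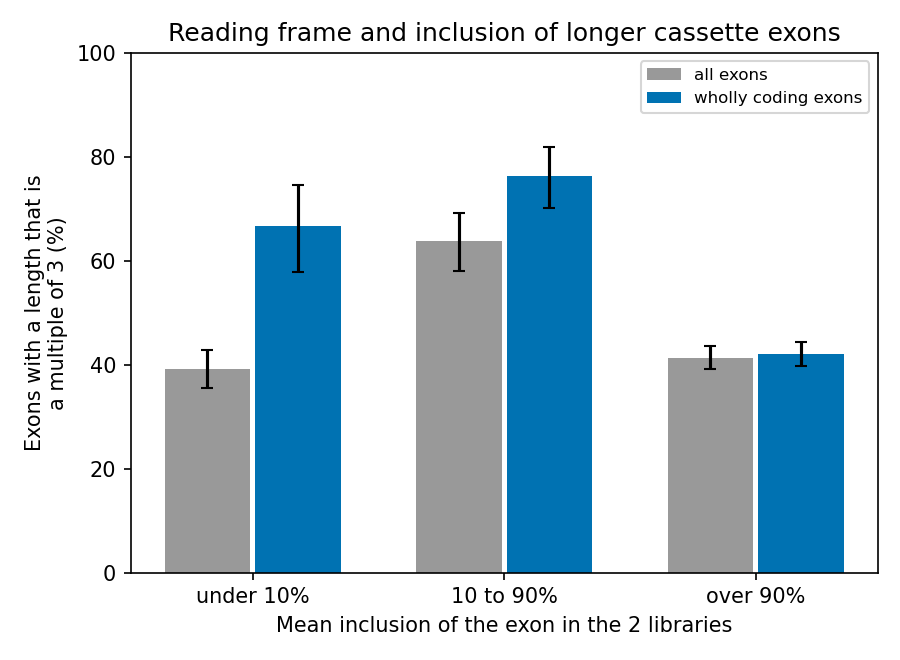
Percentage of longer cassette exons whose length is a multiple of 3 (vertical axis) by mean inclusion in the 2 libraries, for all exons and for wholly coding exons. Bars are shares with exact 95% intervals; the exons of 10 to 90% inclusion stand at 63.7% (all) and 76.4% (wholly coding), against 41.3% and 42.0% above 90% inclusion.

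The exons with the most spanning reads are described here, at levels that the rule itself selected. Srl encodes sarcalumenin, a calcium-binding protein of the sarcoplasmic reticulum, and its 1311-base exon had 3785 and 4330 spanning reads. Ybx3 encodes a cold-shock domain protein that binds RNA, and its 207-base exon, which separates the long from the short form of the protein, was kept in 12.96% of 3849 reads and 16.9% of 2497. Usp47, a deubiquitinase, had a 60-base exon at 59.2 and 55.8%. Map7d1, a microtubule-associated protein, had a 111-base exon at 57.6 and 56.9%, and Eif4g2, a translation factor, a 114-base exon at 88.9 and 87.2%. Ctbp1, a transcriptional corepressor, kept a partly coding exon of 193 bases in 81.1 and 80.9% of reads. In Usp47, Map7d1, Eif4g2 and Ctbp1 the values of the 2 libraries lay within 4 points of each other. Slc16a3 encodes the lactate exporter of glycolytic fibres, and its 95-base 5′ UTR exon stood at 80.6 and 87.4%. Ndufa5, a subunit of respiratory complex I, kept a 117-base exon in 89.9 and 89.7% of reads, and Ube2v1, a ubiquitin-conjugating enzyme variant, a 119-base exon in 12.7 and 13.9%.

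Many of these levels changed when unannotated combinations of exons were left out. Of 92 exons followed across the alternatives 46 kept enough reads of annotated transcripts, and the mean inclusion of 32 of these moved by more than the SD between the libraries. Of the 295 exons, 99 still met the rule. With reads of annotated transcripts alone the mean inclusion was 85.0% for Map7d1, 3.33% for Usp47, 82.5% for Srl, 42.7% for Ctbp1 and 100% for Eif4g2. Slc44a2, a choline transporter-like protein, had overlapping exons of 172 and 128 bases at means of 40.3 and 37.2%, each without the reads that kept the other. Each was at 0.00% with annotated transcripts alone. In the gene 4833439L19Rik the mean of an 88-base exon was 18.5% with all reads and 62.4% with annotated transcripts alone.

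The 2 libraries gave similar inclusion for most of the exons. The absolute difference had a median of 5.32 points, and 234 of the 295 (79.3%) lay within 10 points. Across the exons inclusion correlated between the libraries with a Pearson's r of 0.953 and a Spearman's rho of 0.934 (n = 295). Exons of 1 gene share reads, and the range was set by the rule. The kept and skipped reads of each exon were also compared with Fisher's exact test (two-sided), adjusted by Benjamini-Hochberg over all 3279 cassette exons of any length with enough reads. An exon was called different when its adjusted p was below 0.05 and its difference at least 10 points. This was met by 14 of the 295 exons (4.75%), against 0.732% of all exons tested. Higher inclusion in replicate 2 was called for 12, against 0.549% of all, and lower inclusion for 2, against 0.183%. An exon of intermediate inclusion has more room to differ, and a large difference itself moves a mean into the range, so nothing is read from this excess. Without a minimum difference 17 passed, and 54 had an unadjusted p below 0.05. The shares of all exons tested that met these limits are not given here, so nothing is read from these counts.

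**Figure D2:**
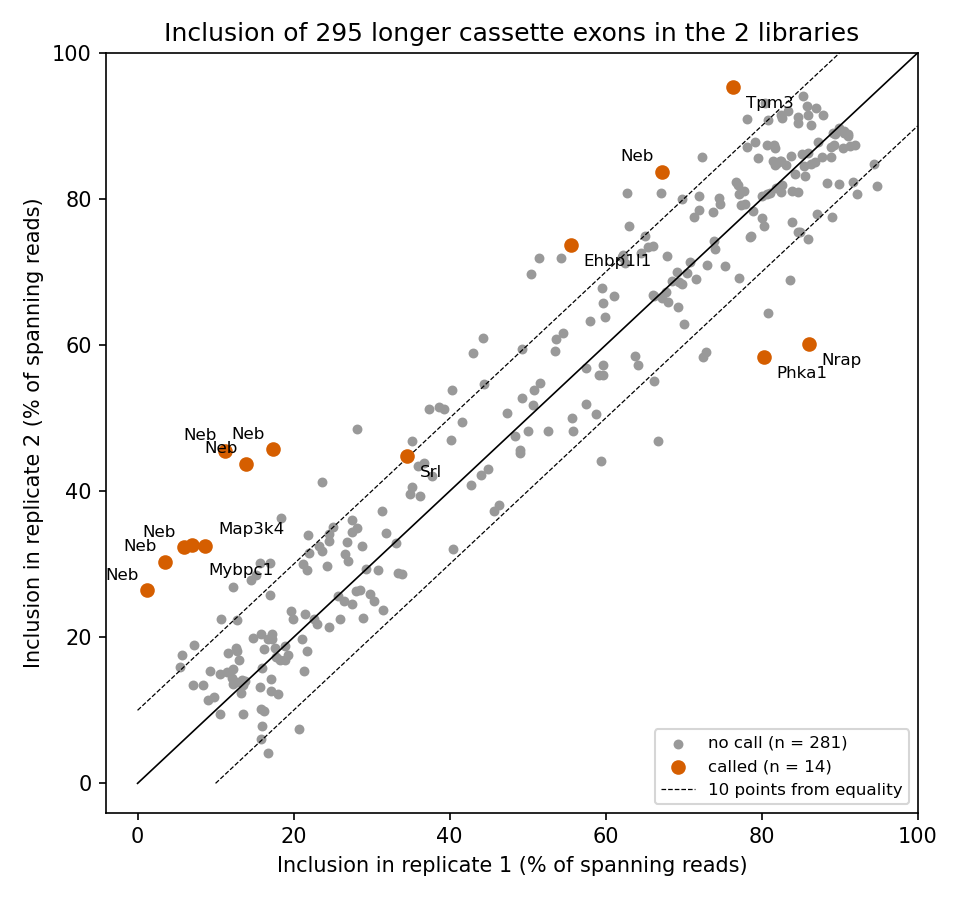
Inclusion of each of the 295 exons in replicate 1 (horizontal axis) and replicate 2 (vertical axis), as a percentage of spanning reads. Grey points had no call, orange points are the 14 called exons with their genes, the solid line is equality and dashed lines are 10 points away; 234 exons lie between the dashed lines.

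The called exons lay in 8 genes, 4 of them sarcomeric. The sarcomere and Z-disc list had 42 genes, of which 5 held 11 of the exons. Of these 11, 9 were called higher in replicate 2, 1 lower and 1 was not called, with a median difference of 25.6 points, against 1.93 points over the 295 exons and 0.00 over all exons tested. The 9 are 7 exons of Neb and 1 each of Mybpc1 and Tpm3, and the lower exon is that of Nrap. Most of the 11 differences thus come from Neb, whose exons share reads. Among the called exons of this list, Neb exons 146, 148 and 150 and the Mybpc1 exon were below the lower inclusion limit in replicate 1. Their means met the rule only through the higher values of replicate 2, which favours large differences. The Tpm3 exon was above the upper limit in replicate 2, at 95.3%. Its mean met the rule only through the lower value of replicate 1. Nothing is therefore read from this median about sarcomere genes as a set.

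The 7 Neb exons lie near the 3′ end of the gene, which codes for the part of nebulin at the Z-disc. They are exons 138, 143, 146, 148, 149, 150 and 151 of the 157 exons of the transcript Neb-202. The 111-base exon 138 was kept in 26 of 150 reads of replicate 1 (17.3%, interval 11.6 to 24.4%) and in 107 of 234 reads of replicate 2 (45.7%, 39.2 to 52.3%). The 105-base exon 143 was kept in 13.9 and 43.8%. The other 5 exons have 93 bases. Exon 146 was kept in 5.95 and 32.3% and exon 148 in 1.19 and 26.4%, the latter from 2 of 168 and 70 of 265 reads. Exon 149 was mostly kept, at 67.3 and 83.8%, while its neighbour exon 150 was at 3.55 and 30.4%. Exon 151 had the widest gap of the 14 called exons, with 19 of 170 reads (11.2%, 6.86 to 16.9%) and 127 of 279 (45.5%, 39.6 to 51.6%). All 7 were higher in replicate 2 with intervals that do not overlap, and their adjusted p (Fisher's exact test) ran from 2.08e-12 for exon 151 to 0.0119 for exon 149. These exons share reads and are not independent. Incomplete matches made up 57.0 to 61.0% of the Neb reads, and none belonged to a complete annotated transcript. Without incomplete and genomic models the differences of exons 138, 143, 146, 149 and 151 were 20.1 to 29.1 points and lost their calls (adjusted p 0.0619 to 0.454, Fisher's exact test). Counted only against annotated introns, exon 149 was at 100% in both libraries, with a difference of 0.00.

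Mybpc1 carried the call with the lowest adjusted p. Slow myosin-binding protein C links myosin and actin filaments, mostly in slow fibres but also in fast ones. Its 59-base coding exon, exon 27 of 29, was kept in 26 of 372 reads of replicate 1 (6.99%, 4.62 to 10.1%) and in 701 of 2152 of replicate 2 (32.6%, 30.6 to 34.6%). The difference was 25.6 points (adjusted p = 5.62e-26, Fisher's exact test). Its length is not a multiple of 3. With annotated transcripts alone its mean inclusion was 0.617% and the difference 1.23 points, without a call.

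Nrap chaperones thin-filament assembly, and skipping of its alternative exon is known from the heart. The 105-base exon 12 was kept in 173 of 201 reads (86.1%, 80.5 to 90.5%) of replicate 1 and 399 of 664 (60.1%, 56.3 to 63.8%) of replicate 2. The difference of replicate 2 from replicate 1 was -25.98 points (Fisher's exact test, adjusted p = 2.74e-10). The most read annotated transcripts were Nrap-202 with the exon and Nrap-201 without it. Tpm3 encodes slow tropomyosin, and its 79-base exon was kept in 71 of 93 reads (76.3%) and 565 of 593 (95.3%), higher by 18.9 points (adjusted p = 6.04e-06, Fisher's exact test). Synpo, an actin-associated protein, had the sarcomere exon without a call, a 91-base 5′ UTR exon at 9.84 and 11.8%.

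**Figure D3:**
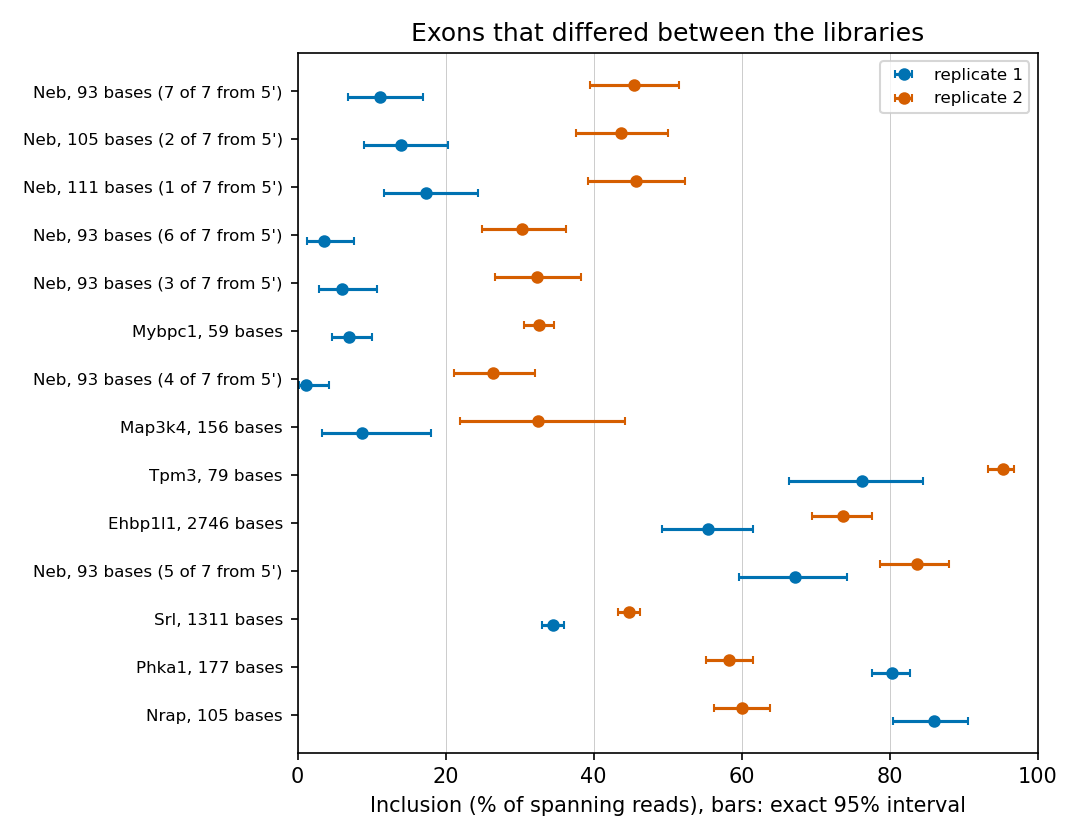
Inclusion (horizontal axis, percentage of spanning reads) of the 14 called exons in replicate 1 (blue) and replicate 2 (orange), with exact 95% intervals as bars. The Neb exons are numbered by their order from the 5′ end among the 7; all but the exons of Phka1 and Nrap are higher in replicate 2.

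On single reads the Neb exons were often kept as a block in replicate 2. All 7 exons were kept in 52 of the 233 reads of replicate 2 that span them (22.3%, 17.1 to 28.2%) and in 1 of 150 reads of replicate 1 (0.667%, 0.0169 to 3.66%). Exon 149 alone was kept in 46.0 and 31.8% of reads, and none of the 7 in 23.3 and 6.87%. Exons 138 and 149 without the other 5 made up 8.0 and 7.3%. Of the 128 combinations possible, 37 were seen and 17 were seen in both libraries. The patterns with 1 or 0 exons kept were the most read in replicate 1, and the full block was the second most read in replicate 2.

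**Figure D4:**
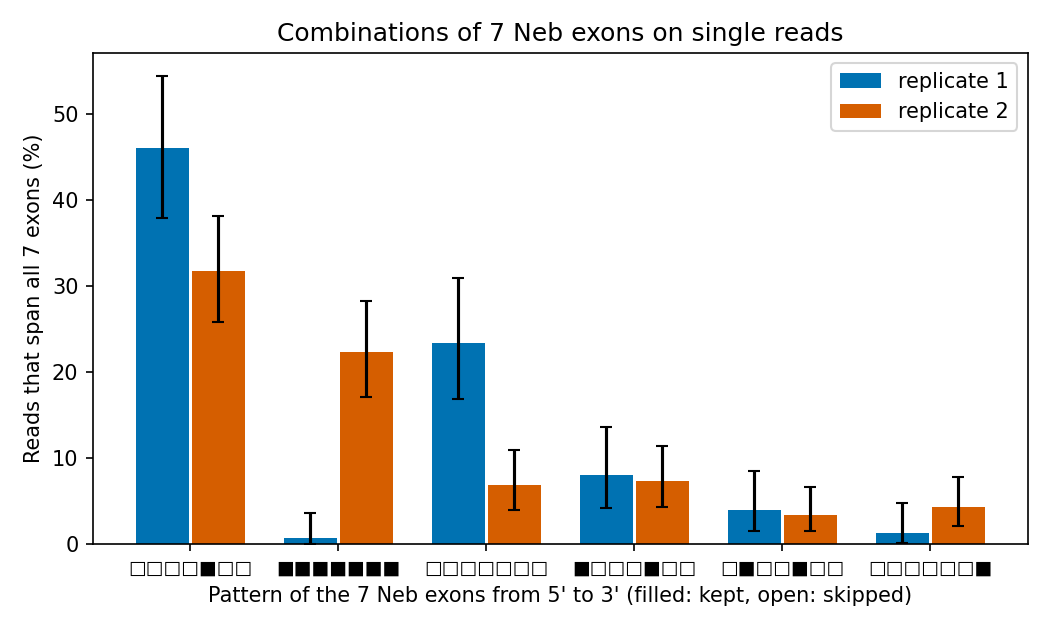
Share of reads spanning all 7 Neb exons (vertical axis, %) that carried each of the 6 most read combinations, with exact 95% intervals. Squares give the exons from 5′ to 3′, filled when kept; the fully filled pattern has 0.667% of 150 reads in replicate 1 and 22.3% of 233 in replicate 2.

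In the triad, calcium and membrane list 8 of 32 genes held 11 of the exons, of which 1 was called higher, 0 were lower and 10 had no call. Their median difference was -0.62 points. The called exon was the 1311-base exon 2 of 7 of Srl, kept in 1307 of 3785 reads (34.5%, 33.0 to 36.1%) and 1942 of 4330 (44.8%, 43.4 to 46.3%). It was higher by 10.3 points (adjusted p = 1.42e-18, Fisher's exact test), just past the minimum difference. The exon separates sarcalumenin from a shorter glycoprotein of the same gene. With annotated transcripts alone the difference was 6.31 points, under the minimum. Bin1 shapes the transverse tubules, and its 72-base exon was at 26.9 and 33.1%. Camk2b encodes the beta subunit of calmodulin-dependent kinase II, and 3 consecutive exons of 114, 129 and 129 bases stood at means of 78.3, 81.7 and 82.3% (SD 2.87, 0.205 and 0.439, n = 2). Camk2g had exons of 63 and 69 bases at 17.4 and 66.9%, and Camk2d an 89-base exon at 85.9%. Stim1, the calcium sensor of the reticulum, kept a 93-base exon in 9.28 and 15.3% of reads, none of them annotated. Mtmr3, a lipid phosphatase, had a 111-base exon at 59.7 and 57.3%. Dysf, the membrane repair protein dysferlin, had a 63-base exon at 16.7 and 4.23%, without a call (adjusted p = 0.782, Fisher's exact test).

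In the signalling and metabolism list 13 of 41 genes held 28 of the exons, with 0 called higher, 1 lower and 27 not called, and a median difference of 2.86 points. The called exon belongs to Phka1, whose product activates glycogen phosphorylase. Skipping of this exon gives a shorter form known from slow and heart muscle. The 177-base exon was kept in 759 of 945 reads (80.3%, 77.6 to 82.8%) of replicate 1 and 565 of 968 (58.4%, 55.2 to 61.5%) of replicate 2. The difference of replicate 2 from replicate 1 was -21.9 points (Fisher's exact test, adjusted p = 7.22e-23). Annotated transcripts held 84.1% of its reads.

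The other exons of this list had no call. Mff and Opa1 act in mitochondrial fission and fusion. The 75-base Mff exon was at 43.0 and 58.9% and the 111-base Opa1 exon at 44.3 and 60.9%, with adjusted p of 0.319 and 0.529 (Fisher's exact test). Opa1 had a second exon of 54 bases at 25 and 35.1%, and Dnm1l, the fission GTPase, a 78-base exon at 18.8% in both libraries. Tsc2, which restrains mTOR signalling, kept a 69-base exon in 49.3 and 59.5% of reads. Vegfa, the vascular growth factor, had a 132-base exon at 85.4 and 94.1% and a 72-base exon at 17.3 and 20.4%. Pde4dip, an anchor of phosphodiesterase, had a 153-base exon at 86.3 and 84.8%, all in unannotated or incomplete models. Sema6c, a membrane semaphorin, had a coding exon of 96 bases at 37.3 and 51.3% and 5′ UTR exons of 90 bases at 28.2 and 48.5% and of 145 bases at 16.2 and 18.4%. The microtubule genes Map4 and Clip1 gave 77.9 and 79.4% for a 93-base Map4 exon, 10.5 and 14.96% for its 114-base exon, and 19.9 and 22.5% for a 105-base Clip1 exon. The Clip1 mean was 74.6% rather than 21.2% when only annotated skipping introns were counted. Bag6, a chaperone, had exons of 147 and 108 bases at means of 73.6 and 30.99%.

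None of 18 exons of the transcription and RNA-binding list was called (0 of 18, in 12 of 49 genes, Fisher's exact test), with a median difference of -0.68 points. Of the 18, 3 had an unadjusted p below 0.05. Mef2c kept the 138-base exon in 70.4 and 69.9% and the 144-base exon in 25.7 and 25.6%. Mef2a split evenly, at 50.6 and 51.8% for its 132-base exon and 48.3 and 47.5% for the 138-base exon. Mef2d kept the 135-base exon in 81.5 and 85.3% and the 138-base exon in 17.1 and 14.4%. The muscleblind proteins are splicing factors that regulate muscle exons, and 3 of the exons lie in their genes. The 95-base exon was kept in 74.7 and 79.4% in Mbnl1 and in 15.9 and 7.84% in Mbnl2. The Mbnl2 difference of -8.09 points had an adjusted p of 0.0477 (Fisher's exact test) but was under the minimum size. A partly coding Mbnl1 exon of 1049 bases was at 24.6 and 34.1%. Hnrnpa2b1 and Hnrnpd, nuclear RNA-binding proteins, had exons at means of 84.4% (120 bases), 52.9% (147 bases) and 80.2% (57 bases). Eif4h, an initiation factor, kept a 60-base exon in 16.0 and 15.8%. Nfix and Nfic, nuclear factor I genes, had exons at means of 25.8 and 86.5%. Rbm24, a muscle splicing regulator, had a 113-base exon of a noncoding transcript at 16.3 and 9.87%. The overlapping Ubap2l exons of 60 and 75 bases were at means of 29.995 and 19.5%, each without the reads that kept the other.

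The 2 called exons outside the lists were those of Ehbp1l1 and Map3k4. Ehbp1l1, a membrane-trafficking protein, had the longest exon of the 295, at 2746 bases, kept in 146 of 263 reads (55.5%) and 356 of 483 (73.7%). The difference of 18.2 points had an adjusted p of 9.05e-05 (Fisher's exact test). It was lost with annotated transcripts alone (4.98 points), without incomplete and genomic models (4.92) and when exons sharing 1 splice site counted as kept (6.84). Incomplete matches held 62.5% of its reads. Map3k4, a stress-kinase activator, kept a 156-base exon in 6 of 69 reads (8.70%) and 24 of 74 (32.4%). Replicate 1 was thus below the lower inclusion limit, and the mean met the rule only through replicate 2. The adjusted p of this exon was 0.0477 (Fisher's exact test), and the call was lost in 4 of 5 alternative counts. The exons that passed the adjusted p by less than 10 points were those of Ybx3 (3.90 points), Slc16a3 (6.78 points) and Mbnl2. Exons above 200 bases were higher in replicate 2 in 16 of 22 cases, and the shorter ones in 154 of 273.

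Fibre-type and other cell markers differed between the same libraries. The summed level of 4 slow-fibre markers was 174 counts per 1000000 reads (CPM) in replicate 1 and 3210 in replicate 2, with all 4 detected in both. The 6 fast-fibre markers summed to 167014 and 137097 CPM. Myh7, slow myosin, made up 0.324 and 5.86% of the reads of 4 adult myosin heavy chain genes, Myh1 4.57 and 14.3%, Myh2 0.611 and 5.79%, and Myh4 94.5 and 74.0%. The level of Myh4 itself was 22961 and 29395 CPM, so that it did not follow the sum of the fast markers. Of 4 cardiac markers none was detected in both libraries and 3 were at 0 in both. Summed levels of other cell types were low in comparison. In CPM they were 15.9 and 55.4 for 3 smooth muscle markers, 21.9 and 55.4 for 3 of endothelium, 16.6 and 47.7 for 3 of adipocytes and 24.5 and 51.99 for 3 of Schwann cells. The 2 blood markers were at 170 and 98.9, the 3 immune markers at 66.9 and 34.9, and the 4 fibroblast markers at 618 and 655. Of 3 neuron markers 2 were at 0 in both. In bulk RNA, more cells of a type and more RNA per cell cannot be told apart. The part of fibre composition and of other cell types in the differences of the Neb, Mybpc1, Nrap, Tpm3 and Phka1 exons was not tested. The genes themselves also differed in level: Mybpc1 had 377 and 2183 reads, Tpm3 98 and 615, Nrap 434 and 1128, Neb 245 and 343, and Phka1 1035 and 1019. Nrap, Mybpc1 and Tpm3 were called higher in replicate 2 at the gene level, as were 8.24% of all genes. Neb (162 and 292 CPM) and Phka1 (686 and 869 CPM) were also higher but under the 2-fold limit of that call. Their adjusted p was 5.5e-11 and 1.74e-06 (Fisher's exact test).

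The levels of splicing regulator genes were compared between the 2 libraries. The call for a gene required a 2-fold ratio and an adjusted p below 0.05 (Fisher's exact test over 9032 genes). Of 38 regulators tested from a list of 45, 2 were higher in replicate 2 against 8.24% of all genes, 0 lower against 2.04%, and 36 had no call. The median log2 ratio was 0.23, against 0.19 over all genes, on the log2(CPM + 1) scale. Qk, which encodes the quaking protein, had 221 and 709 reads (log2 ratio 2.04), and Rbm20, a regulator of titin splicing, 39 and 77 (1.31). The count of calls is near the background. Of the 38, 10 had an unadjusted p below 0.05. The share of all genes at that limit is not given here, so nothing is read from this count. Mbnl2, a muscleblind splicing regulator, had 325 and 488 reads (0.95 on the log2 scale, adjusted p = 8.52e-19 by the exact test), which is under the 2-fold limit. Mbnl1 had 230 and 257 reads (0.52, adjusted p = 0.00074) and Hnrnpk 200 and 228 (0.55, adjusted p = 0.000821), also under it. Rbfox1 had 111 and 51 reads (log2 ratio -0.75, adjusted p = 0.0131 by the exact test), lower in replicate 2 and also under the 2-fold limit.

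Reads that span 2 of the exons of a gene showed how they were combined. Pairs with at least 50 joint reads in each library were tested within each library by Fisher's exact test, adjusted over 7590 pairs of cassette exons. A pair was called when both libraries had an adjusted p below 0.05 in the same direction. Of 121 pairs in 57 genes 42 were called (34.7%), against 2.33% of all pairs. The exons were kept together in 32 (against 1.95%) and excluded each other in 10 (against 0.382%). Pairs of intermediate exons can show coupling that pairs of nearly constant exons cannot, so nothing is read from this excess. None of the 121 pairs had an adjusted p below 0.05 in both libraries with opposite directions. In 25 of the 32 pairs kept together, at least 90% of the reads that skipped both exons removed them in 1 intron, and in 5 pairs under 10% did.

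The 10 exclusive pairs lay in Mef2c, Mef2a, Mef2d, Ide, Calu, Itga7, P4ha2, Acp1, Plpp1 and Tcf3. The pairs of Calu, Itga7, P4ha2, Acp1, Plpp1 and Tcf3 were named after their values were seen. All 10 pairs have lengths that differ by a multiple of 3, and 8 lie less than 1000 bases apart. Exactly 1 exon of the pair was kept in at least 90% of reads of each library in 9 of the 10. In Mef2c no read kept both exons. The first exon alone was kept in 63 of 245 reads and 108 of 422, the second alone in 173 and 294, and neither in 9 and 20 (adjusted p = 6.15e-46 and 2.96e-77, Fisher's exact test). In Mef2a 73 and 106 reads kept the 138-base exon, 78 and 115 the 132-base exon, 0 kept both and at most 1 in a library kept neither. In Mef2d every one of 122 and 216 reads kept exactly 1 exon. Ide encodes the insulin-degrading enzyme, and its 145-base exons were kept singly in 99.3 and 98.8% of reads, with the exon at chr19:37290044-37290188 in 77.1 and 69.2%.

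The exclusive pairs of the other genes were as strict or nearly so. Itga7 encodes the laminin-binding integrin of muscle, whose extracellular variants X1 and X2 differ by the choice between these exons of 132 and 120 bases. The 120-base exon was kept in 94.4 and 84.8% of reads and the 132-base exon in 5.48 and 16.0%. P4ha2, a collagen prolyl hydroxylase, kept its 60-base exon in 40.5 and 32.1% and the 66-base exon in 59.5 and 67.9%, and no read of 79 and 84 had both or neither. In Acp1, whose sequences are shown above, the first exon was kept in 63.8 and 58.5% and the second in 36.2 and 39.4%. In Tcf3 the 227-base exon was kept alone in 43 and 39 reads and the 236-base exon alone in 19 and 17, with 0 reads for both or neither. Calu kept its first exon in 18.4 and 36.3% and its second in 83.7 and 68.9%, and 3 and 5 reads had both. Plpp1, a lipid phosphate phosphatase, was the loosest, with 94.6 and 89.9% of reads keeping exactly 1 of exons that are 16389 bases apart. None of these exons was called different between the libraries.

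**Figure D5:**
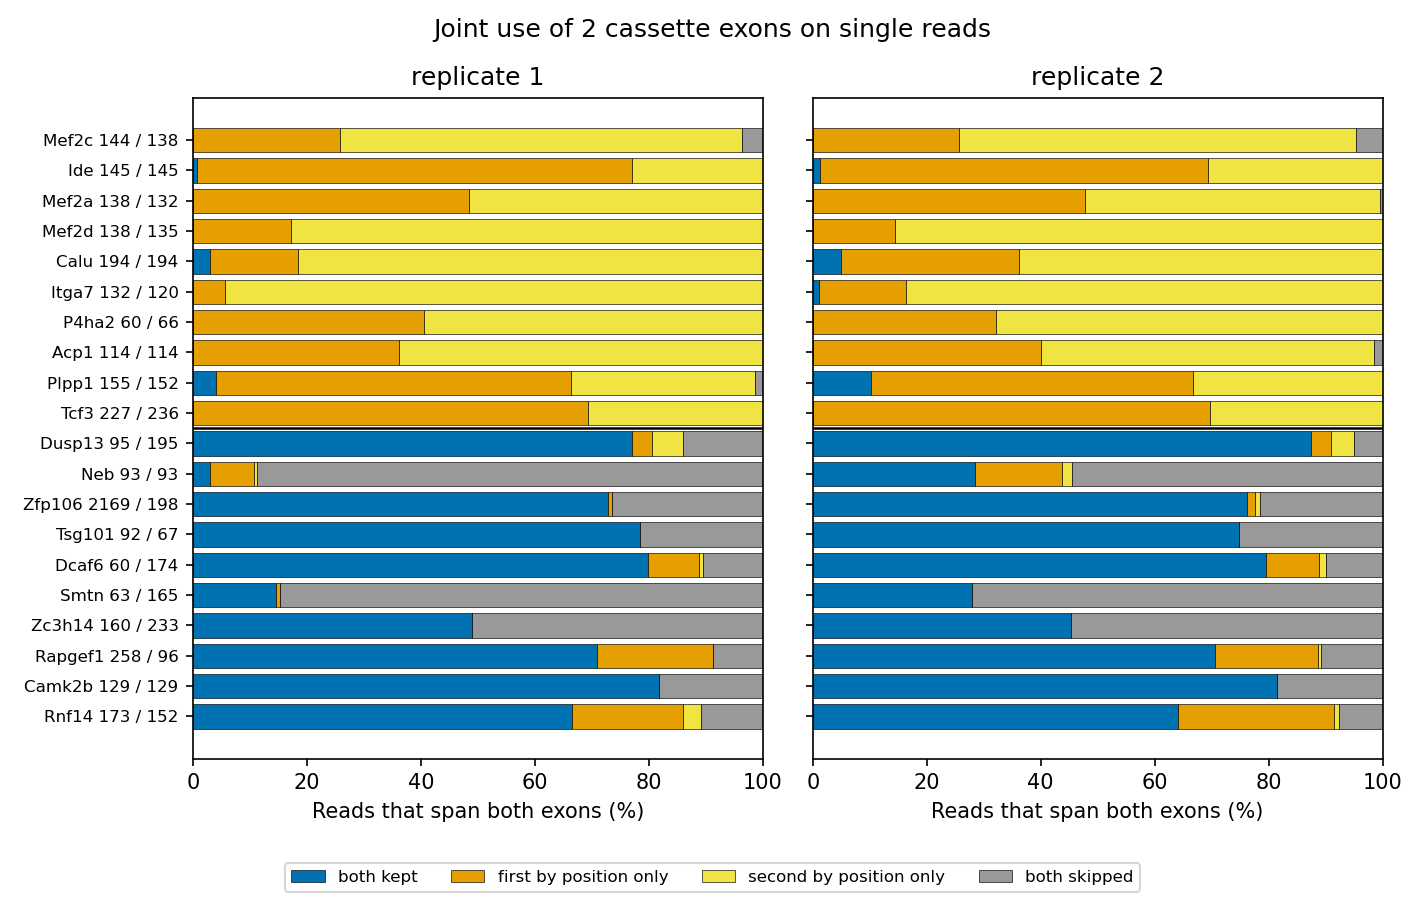
Share of reads that span both exons of a pair (horizontal axis, %) and kept both, the first or the second in genome order, or neither, in replicate 1 (left) and replicate 2 (right), with lengths in bases beside the gene. Above the line are the 10 exclusive pairs, in which single exons fill nearly the whole bar, and below it 1 pair kept together from each of 10 genes, in which most reads kept both or skipped both.

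The pairs kept together that are named here lay from 96 bases (Smtn) to 6607 bases (Rhot1) apart. Apart from Dusp13, the genes named here were chosen after their values were seen. Tsg101, an ESCRT component, had exons of 92 and 67 bases, both kept in 146 of 186 reads and 113 of 151 and both skipped in all others. Zc3h14, a poly(A)-binding protein, had exons of 160 and 233 bases, both kept in 73 of 149 and 57 of 126 reads and never split. In Zfp106, a zinc-finger RNA-binding protein, an exon of 2169 bases and one of 198 bases had the same state in 99.3 and 97.7% of reads. Smtn, which encodes smoothelin, kept its 63-base and 165-base exons together in 26 of 178 and 29 of 104 reads, and 1 read in all split them. Rhot1, a mitochondrial transport GTPase, had exons of 123 and 144 bases 6607 bases apart with the same state in 98.6 and 95.1% of reads. Dcaf6, a nuclear receptor cofactor, had exons of 60 and 174 bases with the same state in 90.3 and 89.4%. In Dusp13, which encodes dual-specificity phosphatases, exons of 95 and 195 bases shared their state in 91.1 and 92.4%. Of the 32 pairs, 17 had the same state in at least 90% of reads in each library. In each of the 7 pairs named here all reads that skipped both exons did so by 1 intron.

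Longer series of exons ranged from a single block to nearly all possible combinations. The 3 Camk2b exons, which code for a proline-rich insert found in muscle, were all kept in 86 of 107 reads (80.4%) and 116 of 152 (76.3%) and all skipped in 18.7 and 19.1%. Of 8 possible combinations 3 were seen. Srsf4 encodes a splicing factor, and its 3 exons, which are annotated only in decay transcripts, were all skipped in 76.9 and 80.9% of reads and all kept in 21.2 and 19.1%. Zc3h14 had 4 exons, all kept in 37.5 and 41.1% and only the first 2 kept in 37.5 and 38.7%. Rapgef1, a guanine-nucleotide exchange factor, used 12 of 16 combinations of 4 exons, and the last 3 without the first led with 41.7 and 40.8%. Ktn1 encodes kinectin, a membrane receptor of kinesin. Of 32 possible combinations of 5 non-overlapping Ktn1 exons 30 were seen in 231 and 323 reads, led by the first 3 alone with 29.9 and 27.9%. None of 14 Ktn1 pairs was called (Fisher's exact test), and 1 had an unadjusted p below 0.05 in either library. A missing call at this depth does not show that the exons were combined independently. The single Ktn1 exons nevertheless had stable levels, at means of 88.3% (69 bases), 66.5% (87 bases), 78.9% (72 bases) and 13.8% (84 bases). Overlapping Ktn1 exons of 110 and 116 bases had means of 34.3 and 22.4%, each without the reads that kept the other.

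In Neb, 7 of 21 pairs were called, all kept together. Exons 150 and 151 had the same state in 91.7% of 169 reads and 83.0% of 270. In replicate 1, 150 of these reads skipped both exons and 5 kept both, and in replicate 2 147 skipped both and 77 kept both. Exons 143 and 146 had the same state in 90.5 and 85.5%, with 135 reads that skipped both and 8 that kept both in replicate 1, and 140 and 78 in replicate 2. Exons that are rarely kept share the skipped state often without coupling, so these percentages do not measure its strength. The other 14 pairs did not pass in both libraries. Without the Neb pairs, an exclusion chosen after seeing the data, 35 pairs were called.

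Whether an exon was kept was also compared with the last exon of the read. In 13 exons at least 20 reads ended in the most used last exon and at least 20 in others in each library. None was called (Fisher's exact test), and 2.76% of all 145 exons tested were, so that the count is near the background. Of the 13, 0 had an unadjusted p below 0.05 in both libraries, and 1 had it in either. That was the 95-base Dusp13 exon, kept in 83.1 and 67.4% of reads with the main and other ends in replicate 1 (p = 0.0241, Fisher's exact test) and in 90.2 and 95.8% in replicate 2. In Pde4dip the exon was kept in 86.0 and 87.1% of reads of the 2 classes in replicate 1, and in Ctbp1 in 81.2 and 80.5%. With reads of annotated transcripts alone 3 exons could be tested and all 3 were called. They were also the only calls among all 38 cassette exons tested in this way (7.89%). They were the 193-base Ctbp1 exon, kept in 0.00% of reads with the main end and 100% with other ends in each library, and both exclusive exons of Mef2c. The 144-base Mef2c exon was then kept in 0.00% of reads with the main end in each library and in 67.6 and 52.5% with other ends, and the 138-base exon in 100% and in 29.7 and 47.5%. Reads of annotated transcripts carry only the combinations of exon and last exon that the annotation lists. These 3 calls therefore cannot tell coupling in the muscle from the choice of annotated transcripts, and no coupling is read from them.

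Some of the exons carry the stop codon of a decay transcript. There were 14 of them, named here after their values were seen. E2f6, a transcriptional repressor, kept its 66-base exon in 73.0 and 71.0% of reads, more often than it skipped it. Yaf2, a Polycomb-associated protein, had a 70-base exon at 47.4 and 50.7%. Thap12 kept a 95-base exon in 19.2 and 17.6%, Rbm39, a splicing factor, a 73-base exon in 12.8 and 18.2%, and the 207-base exon of Srsf4 was kept in 25.9 and 22.5%. None of these 5 was called different between the libraries.

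Very long exons were few, and 8 were above 300 bases. Besides those of Ehbp1l1, Zfp106, Srl and Mbnl1 they were a 1584-base exon of Ythdf2, which binds methylated RNA, at 88.3 and 82.1%, a partly coding 487-base exon of Aen at 71.95 and 78.5%, a 450-base exon of Epb41, a membrane-skeleton protein, at 27.0 and 30.4%, and a 328-base exon of Mapkap1 at 73.7 and 78.2%. These 4 genes were named after their values were seen.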

How the data were processed

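Long-read RNA-seq libraries of mouse gastrocnemius (1 group, replicates 1 and 2 by their labels) were analysed. The authors deposited read counts for each transcript model, unnormalized and by library. The deposited annotations gave other values, the exon coordinates of each model (mm10, 1-based). Per the annotation's source field, the authors named models with TALON against GENCODE M21. The aligner is not given in the sources used here, nor are the platform and software versions. Models were matched to 295 exons by intron chain. The members, lists and tests were chosen with earlier results of these data known.

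Inclusion carries exact 95% Clopper-Pearson intervals. Fisher's exact tests were two-sided with Benjamini-Hochberg adjustment over all exons, pairs or genes tested. Coupling to the last exon left out exons for which over 5% of reads had a last intron beside or across them. Gene levels are CPM with a pseudocount of 1. Named exons are the 20 most read, the 10 called exons with the largest differences, the 10 called pairs with the most joint reads, exons of the lists and 3 on each side of each limit; others are said to be so. Some exons that this rule names are not reported here. The steps ran in Python 3.11.15 (numpy 2.4.6, scipy 1.17.1, Biopython 1.88, matplotlib 3.10.9) and were tested on simulated data; edgeR 4.0.16 and DESeq2 1.42.0 (R 4.3.3) scaled gene levels in alternatives. Global alignments scored 2 for a match, -1 for a mismatch, and -4 and -1 for opening and extending a gap. Alternatives changed the read minimum, the inclusion range, the reads counted, the depth, the minimum difference and the library left out.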

Additional observations from a re-analysis of the deposited data

How the results depend on the processing

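The number of exons was 137 with at least 100 spanning reads, 696 with at least 20, 169 at 20 to 80% inclusion and 106 with annotated transcripts only. It was 291 to 301 when the range was set in a single library, and 62.5 to 63.6% of these had a length that is a multiple of 3. Exons called different between the libraries numbered 9 at 20 to 80%, 5 with annotated transcripts only (3 of them among the 14), 8 without incomplete and genomic models (7 among the 14) and, chosen after seeing the data, 7 without Neb. Coupled pairs numbered 22 at 100 reads, 97 at 20 reads, 26 at 20 to 80%, 20 (of 23 tested) with annotated transcripts only and 64 with both libraries summed. With annotated transcripts only, 3 of 3 exons tested were called against the last exon, compared with 0 of 13 with all reads. Counts of pairs and of last exons with annotated transcripts only are limited to combinations that the annotation lists, so no coupling is read from them. The causes were not tested, apart from the fewer or more exons that a limit admits. Of 63 differences of the 14 called exons under 5 alternatives none changed sign and 15 were no longer called; with annotated transcripts only, 7 of the 14 had a value and 4 of these lost the call. Under DESeq2 size factors 2 splicing regulators were higher and 1 lower. Mean inclusion moved by more than the SD between libraries in 32 of 46 exons with annotated transcripts only. At the median of about 104 spanning reads an exon's interval is 16.1 points wide. No paired analysis was possible because there is 1 group.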
